A study of Aedes albopictus with 6 samples.

Results

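Small RNAs of the Asian tiger mosquito, Aedes albopictus, were examined in 3 stretches of 2 genome scaffolds in which the listed tags lay mostly on the female side. A tag is a distinct small RNA with its own position and length, listed with 1 count for females and 1 for males. The stretches were NW_021837600.1:41685871-41725499 (39.6 kb), NW_021837600.1:41735615-41743779 (8.2 kb) and NW_021837226.1:36935-47913 (11 kb), and every listed tag lying inside them was taken. They held 152, 134 and 55 tags, in all 341 of the 22773 tags in the table. The stretches were chosen by their measured counts, as clusters of listed tags whose female counts were above their male counts, so the sex difference itself is given below as a description with no test. The RNA came from whole bodies of 2-day-old adults, virgin females and males, with 3 libraries of each sex. The table has 1 column for each sex, so no value has a replicate. The sources used here name neither the strain nor the number of mosquitoes behind a library. As whole bodies were used, a lower level can mean fewer cells making a small RNA or less of it per cell, and these cannot be told apart. The totals behind the columns were 2677063 counts in females and 2060047 in males, and TPM is the count scaled to that total, with no length term. Only tags at least 2-fold apart in TPM between the sexes were in the table.

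PIWI-interacting RNAs (piRNAs) are small RNAs, longer than microRNAs, that guide PIWI proteins to matching transcripts and in animal germ lines keep transposons silent. Many derive from piRNA clusters, stretches of genome whose long precursor transcripts are cut into many piRNAs, while others form in the ping-pong cycle, in which one piRNA guides the cut that makes the next. Aedes mosquitoes have an enlarged family of PIWI proteins, and in them piRNAs are also found outside the gonads and can derive from viral sequence. Strand, tag sequence and gene or repeat annotation of these scaffolds were not used here, so tags are described by position, length and count.

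The 3 spans differed in density and in level. The 39.6-kb span held 3539 female and 796 male counts at 3.84 tags per kb, and its tags covered 6.32% of its bases. The neighbouring 8.2-kb span held nearly the same number of female counts, 3532 against 602 male counts, at 16.4 tags per kb, with 19.3% of its bases covered. In the 11-kb span there were 6001 female and 182 male counts at 5.01 tags per kb, and 3.83% of its bases were covered. The second span was thus the most densely tagged, while the third had the most female and the fewest male counts. In summed TPM the levels were 1322 in females and 386 in males for the first span, 1319 and 292 for the second, and 2242 and 88.3 for the third. The female over male ratios were 3.42 (95% interval 3.17 to 3.70), 4.51 (4.14 to 4.93) and 25.4 (21.9 to 29.6), where the intervals cover counting error only. Together the spans made up 4.86% (4.78 to 4.94) of the listed female counts and 0.71% (0.68 to 0.75) of the listed male counts. With the RLE scaling factors of edgeR in place of the column totals the 3 ratios were 7.72, 10.2 and 57.3. Such factors could be computed from the listed tags alone, so they had no tags of near-equal level to rest on.

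**Figure D1:**
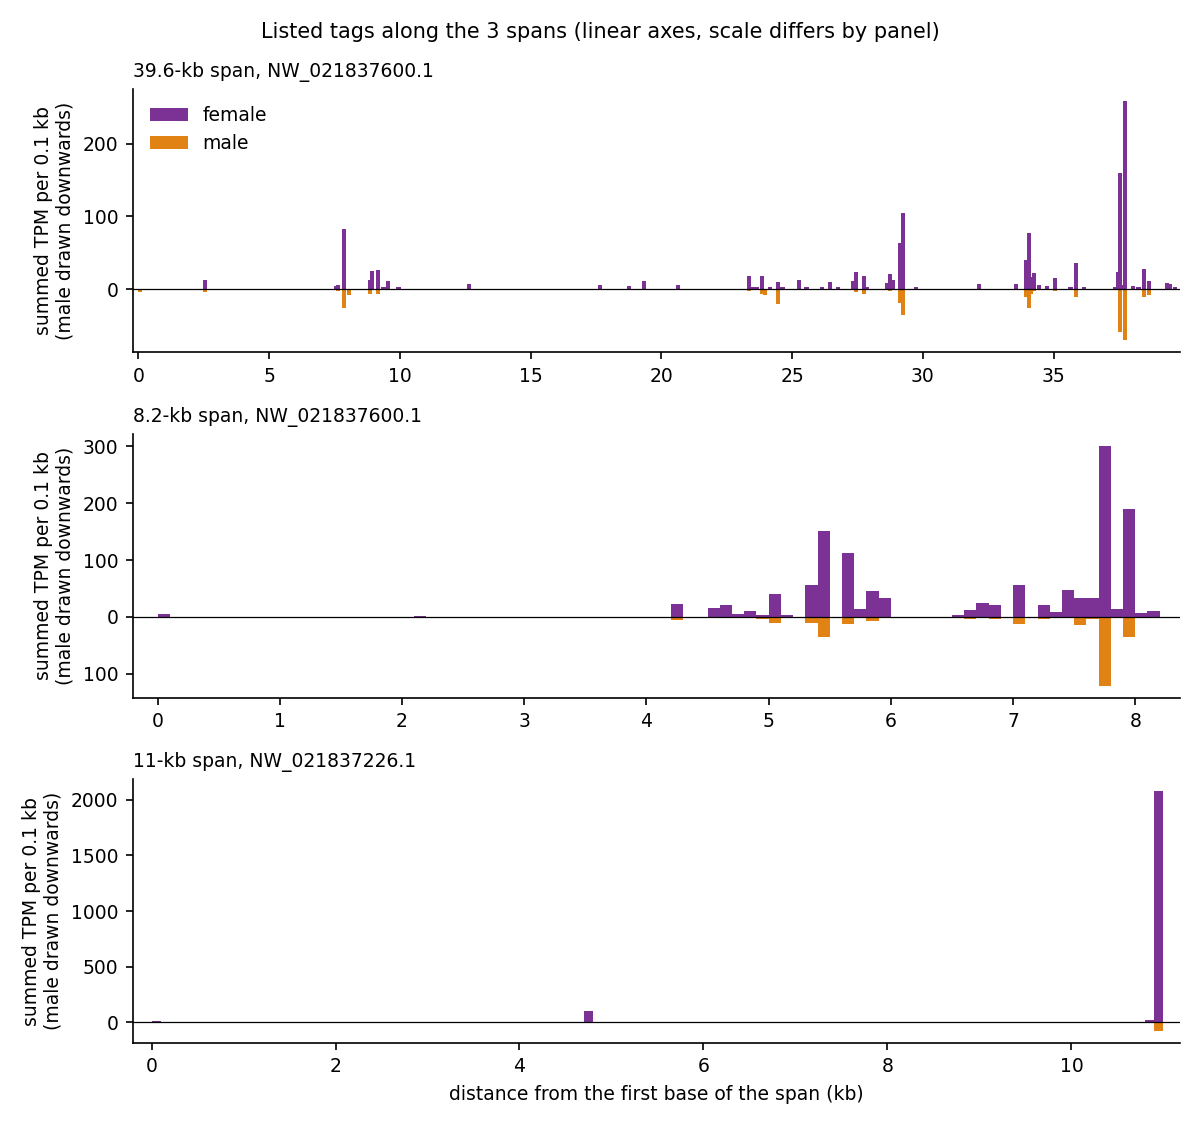
Summed TPM of listed tags in steps of 0.1 kb along each span, female upwards and male downwards, against the distance from the first base of the span in kb, with linear axes whose scale differs by panel. In the 11-kb span nearly all of the signal stands in the last kb, while in the other 2 spans it is spread over many positions.

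The counts were most concentrated in the 11-kb span. There 2 tags sufficed for 50% of the female counts, and the 5 most counted tags held 78.3% of them. In the 39.6-kb span 10 tags were needed and the top 5 held 40.5%, and in the 8.2-kb span 18 tags were needed and the top 5 held 29.2%. Male counts of the 8.2-kb span were more concentrated than its female counts, with 5 tags for 50% and 20.6% in a single tag, against 9.54% for the most counted tag in females. In the 39.6-kb span 6 tags held 50% of the male counts, and in the 11-kb span 2 tags did.

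The 11-kb span was largely 1 stack of overlapping tags at its far end. The 31 tags between bases 47867 and 47913, a window of 47 bases, held 5557 female and 161 male counts, which were 92.6% of the female and 88.5% of the male counts of the span. Their summed female TPM was 2076 and their summed male TPM 78.2, a ratio of 26.6 (22.7 to 31.3). All 31 were higher in females. Without this stack, an alternative chosen after seeing the data, the remaining tags of the span were 16.3-fold (10.5 to 26.6) higher in females.

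Within the stack, 10 tags began on the same base, 47873, and differed only in where they ended. There was 1 tag of each length from 24 to 33 nt, and together they held 4991 female and 136 male counts, 83.2% and 74.7% of the span. The most counted was the 26-nt tag at 47873 to 47898, with 2314 counts in females and 74 in males, a TPM of 864 against 35.9 and a ratio of 24.1 (19.1 to 30.8). It was followed by the 27-nt tag with 781 female and 14 male counts, a ratio of 42.9 (25.4 to 78.9), and by the 30-nt tag with 693 and 21 counts, a ratio of 25.4 (16.5 to 41.3). The 25-nt tag had 622 and 13 counts, a ratio of 36.8 (21.4 to 69.5), and the 29-nt tag had 289 and 12 counts, a ratio of 18.5 (10.4 to 36.3). These 5 intervals all overlap one another. The lengths had 2 peaks, with 28 nt falling between them at 63 female counts and a listed 0 for males. The 26-nt tag took 46.4% (45.0 to 47.8) of the female and 54.4% (45.7 to 63.0) of the male counts of this start. The 30-nt tag took 13.9% (12.9 to 14.9) and 15.4% (9.82 to 22.6). By count both peaks were thus present in both sexes, and in each the female share lay inside the male interval. In males the peak at 30 nt was not resolved from 29 nt, as their Poisson intervals overlapped. These were 13.0 to 32.1 for the 21 counts and 6.20 to 21.0 for the 12.

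The ends of that series were thin. The 24-nt tag at 47873 to 47896 had 127 female and 2 male counts, a ratio of 48.9 whose interval ran from 13.3 to 408, the largest ratio in the 3 spans among tags counted in both sexes. Tags of 31, 32 and 33 nt had 70, 22 and 10 counts in females and were listed at 0 in males. A listed 0 may stand for 0 or 1, since the smallest count above 0 in the table was 2.

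**Figure D2:**
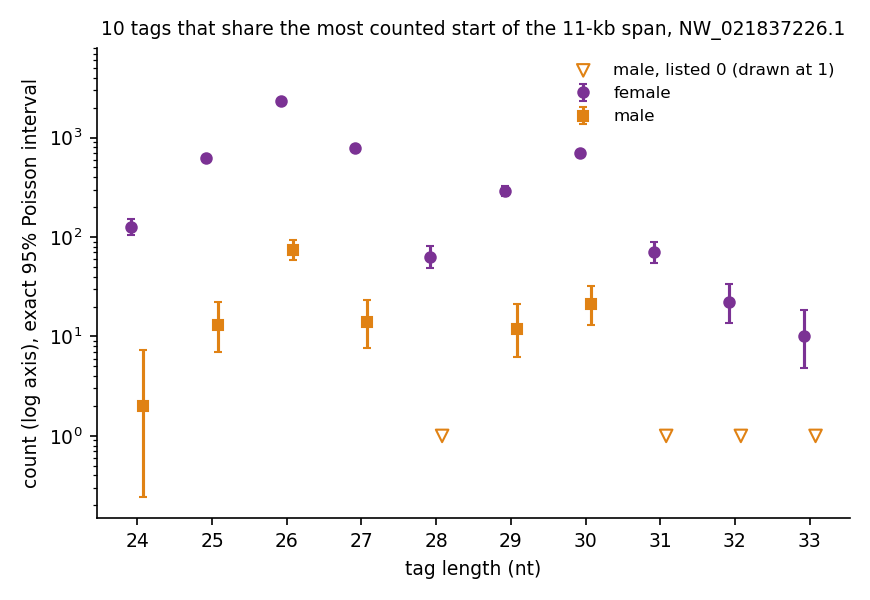
Counts of the 10 tags that begin at base 47873 of NW_021837226.1, by tag length in nt, on a log axis with exact 95% Poisson intervals that cover counting error only, with a listed 0 drawn as an open triangle at 1. In females 26 nt (2314 counts) and 30 nt (693 counts) stand above their neighbouring lengths, and in males 26 nt (74) and 30 nt (21) do.

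Smaller families of tags surrounded this start. Beginning 1 base later, at 47874, were 5 tags with 188 female and 4 male counts in sum, 36.2-fold (13.9 to 134) higher in females, and beginning 2 bases earlier, at 47871, were 4 tags with 70 and 2 counts, a ratio of 26.9 (7.18 to 227). The 26-nt tag at 47874 to 47899 had 38 female counts and a listed 0 in males. On the other side of the stack 6 tags of 24 to 29 nt ended on the same base, 47913, with their starts at each base from 47885 to 47890. They held 220 female and 17 male counts, a ratio of 9.96 (6.08 to 17.4) that lay below the 28.2 (23.8 to 33.7) of the start at 47873. A single member set that value: the 25-nt tag at 47889 to 47913, singled out after its values were seen, had 35 female and 12 male counts, a ratio of 2.24 (1.14 to 4.75). Without it the other 5 tags held 185 and 5 counts, a ratio of 28.5 (11.98 to 88.7).

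A second stack lay in the middle of the 11-kb span. The 8 tags at 41718 to 41749 held 269 female and 5 male counts, 41.4-fold (17.5 to 129) higher in females, and 4 of them began at base 41720. All 5 male counts belonged to 1 tag, the 29-nt tag at 41720 to 41748, which had 150 female counts. Another stack, of 5 tags at 47804 to 47849, held 63 and 4 counts, a ratio of 12.1 (4.51 to 45.9). The largest stretch with no listed tag, 4.95 kb from 42052 to 47007, lay between the stack at 41718 and the other 2. Apart from these 3 stacks the span held 11 tags that overlapped no other. The span was female-higher in all of its 3 stacks, and 1 of its 55 tags was higher in males.

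**Figure D3:**
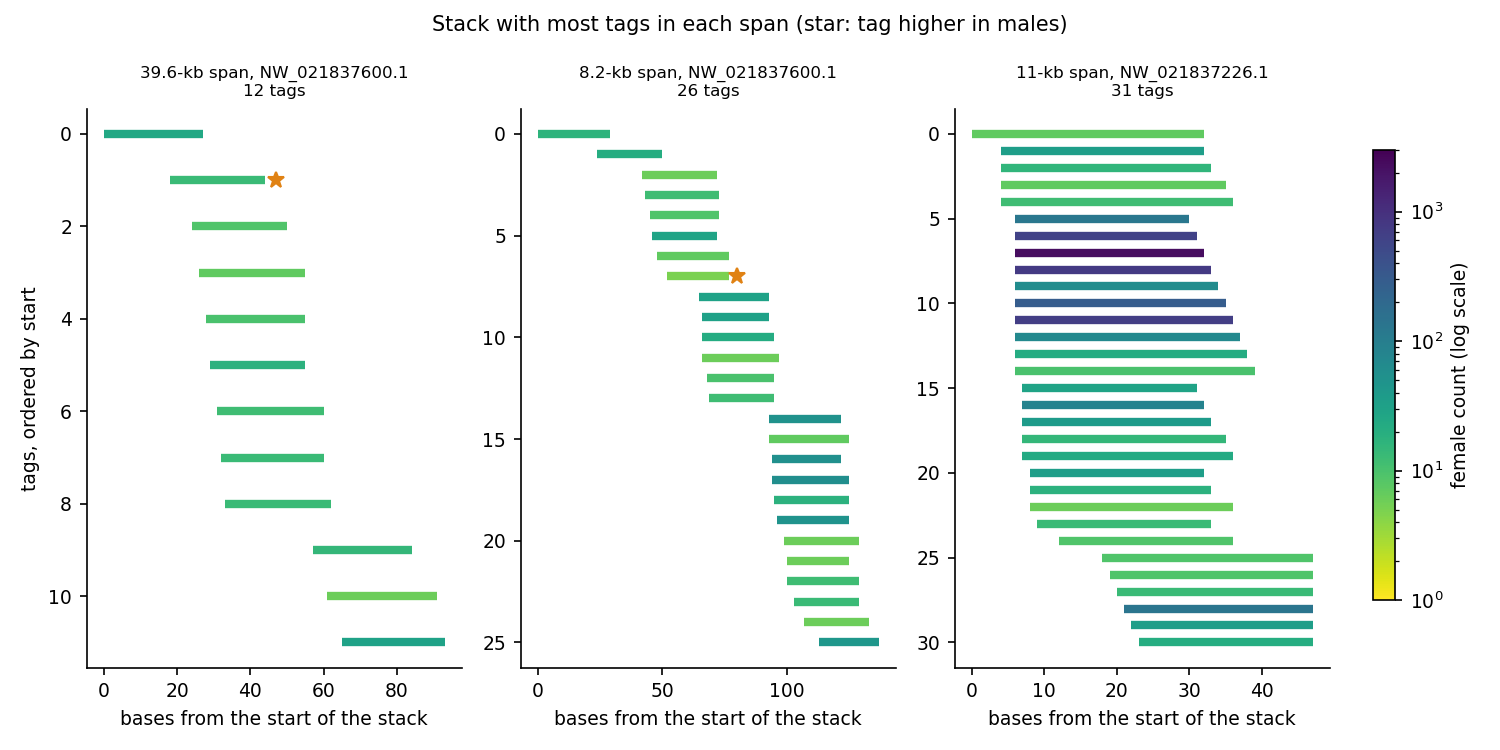
Tags of the stack with most members in each span, each drawn as a bar from its first to its last base in bases from the start of the stack, ordered by start, coloured by female count on a log scale, with a star at tags higher in males. In the 11-kb span the most counted tags of the 31 share a start, while the 12 tags of the 39.6-kb span and the 26 of the 8.2-kb span are stepped along the sequence.

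The 39.6-kb span was made of scattered small stacks and single tags, most of them higher in females. Its most counted tag was the 29-nt tag at 41723655 to 41723683, with 598 female and 120 male counts, a TPM of 223 against 58.3 and a ratio of 3.83 (3.15 to 4.71). With a 28-nt tag that ended on the same base it formed a stack of 687 and 146 counts, 3.62-fold (3.02 to 4.36) higher in females. The 27-nt tag at 41723455 to 41723481 had 280 and 88 counts, a ratio of 2.45 (1.92 to 3.15), and belonged to a stack of 7 tags at 41723447 to 41723485. These 2 stacks held 19.4% and 12.1% of the female counts of the span. Further members were the 28-nt tag at 41693724 to 41693751, with 221 and 53 counts and no overlapping tag, the 26-nt tag at 41715100 to 41715125, with 216 and 72, and the 28-nt tag at 41719970 to 41719997, with 119 and 39. Their ratios of 3.21 (2.37 to 4.42), 2.31 (1.76 to 3.06) and 2.35 (1.62 to 3.46) overlapped within counting error.

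The stack with most tags in this span was not its most counted. The 12 tags at 41714974 to 41715066 had 12 different starts and held 171 female and 41 male counts, a ratio of 3.21 (2.27 to 4.63). Of the 41 male counts 29 came from a single tag that was higher in males, described below. The 7 tags at 41719790 to 41719866, the stack next in number of tags together with that at 41723447, held 106 and 23 counts, a ratio of 3.55 (2.24 to 5.84). The largest ratios among tags of the span counted in both sexes were those of the 29-nt tag at 41715097 to 41715125, with 31 female and 2 male counts, and of the 28-nt tag at 41715039 to 41715066, with 30 and 2. Their ratios of 11.9 and 11.5 had intervals of 3.03 to 103 and 2.93 to 99.7. Those intervals included the ratio of the whole span, so neither tag stood apart from it beyond counting error.

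Levels along the 39.6-kb span are given as a description, since the span was chosen for its female counts. Single tags with near-equal levels in the sexes could not appear, as tags less than 2-fold apart were not in the table. Sums over several tags could still be near equal. In windows of 1 kb, 25 of 40 held tags, and 13 held 10 or more male counts. In 12 of these 13 the summed level was higher in females, with a median ratio of 3.40 over the 13 and a highest of 6.99. The exception, 24 to 25 kb from the first base, held 45 female and 42 male counts, a ratio of 0.82 (0.53 to 1.29) whose interval included 1 and which rose above 1 with TMM or RLE factors. The largest stretch with no listed tag was 5.0 kb, between 41688443 and 41693445.

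In the 8.2-kb span nearly everything lay in the last 3.9 kb, where 131 of its 134 tags and 99.5% of its female counts fell between 41739904 and 41743779. The most counted stack, 10 tags at 41743373 to 41743412, held 774 female and 244 male counts, a ratio of 2.44 (2.11 to 2.83). It contained the 29-nt tag at 41743376 to 41743404, with 329 and 124 counts, the 28-nt tag at 41743374 to 41743401, with 182 and 60, and the 29-nt tag at 41743373 to 41743401, with 80 and 23. The ratios of these 3 tags were 2.04 (1.66 to 2.53), 2.33 (1.73 to 3.18) and 2.68 (1.67 to 4.46). This stack alone held 40.5% of the male counts of the span, but 21.9% of the female counts. Without it the span was 5.93-fold (5.31 to 6.64) higher in females, an alternative chosen after seeing the data.

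Among other stacks of the 8.2-kb span some leaned further to females. Only 66 bases on, 26 tags at 41743479 to 41743615 with 21 different starts held 544 and 77 counts, a ratio of 5.44 (4.28 to 7.0), the stack with most tags in the span. Its interval lay above that of the most counted stack. Next in number of tags were 12 tags at 41741238 to 41741300, with 191 and 13 counts and a ratio of 11.3 (6.46 to 21.6). The 28-nt tag at 41741036 to 41741063 had 337 and 63 counts, a ratio of 4.12 (3.14 to 5.48), and the 25-nt tag at 41743143 to 41743167 had 80 and 29, a ratio of 2.12 (1.37 to 3.37). Among tags counted in both sexes the 30-nt tag at 41743259 to 41743288, with 67 and 3 counts, and the 27-nt tag at 41741610 to 41741636, with 37 and 2, had the largest ratios, 17.2 (5.63 to 85.4) and 14.2 (3.67 to 122). Over the 11 stacks or single tags of this span with 10 or more male counts the ratio ran from 2.36 to 11.3 with a median of 4.85. In the 39.6-kb span it ran from 0.75 to 5.31 over 19 such loci, with a median of 2.78. In 2 of the 19 the ratio was below 1, at 0.88 (0.52 to 1.49) for 41709754 to 41709803 and 0.75 (0.44 to 1.25) for 41710360 to 41710405. Both intervals included 1, and the ratio of the first rose above 1 with TMM factors and those of both with RLE factors.

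By number of tags, 140 of 152 were higher in females in the 39.6-kb span, 132 of 134 in the 8.2-kb span and 54 of 55 in the 11-kb span, beside 68.3% of all listed tags. Tags listed in females alone numbered 91, 84 and 37, or 59.9%, 62.7% and 67.3% of the spans, beside 55.7% of all listed tags. All listed tags include many higher in males, so female-higher tags are the closer comparison. There they were 91 of 140, 84 of 132 and 37 of 54, beside a larger share, 81.9%, of other female-higher nuclear tags. Most of those in the spans had few counts, with medians of 7, 9 and 12. Among tags with at least 20 counts, 10.8% (3.03 to 25.4), 20.4% (10.6 to 33.5) and 41.7% (22.1 to 63.4) were listed in females alone. Of all listed tags of that depth 7.24% were, a value inside the first of these intervals. That background includes male-higher tags, and the share over female-higher tags of that depth was not computed. Among tags listed in females alone the highest in the 8.2-kb span was the 27-nt tag at 41743028 to 41743054, with 100 female counts. It was followed by tags of 27 nt starting at 41742321 with 32 and at 41743545 with 31. In the 39.6-kb span it was the 27-nt tag at 41694820 to 41694846 with 57, followed by tags of 27 nt starting at 41711097 and 41723329 with 23 each. In the 11-kb span the tags of 31 and 28 nt from base 47873 had 70 and 63. Tags listed in females alone held 23.7% of the female counts in the 39.6-kb span, 30.6% in the 8.2-kb span and 10.5% in the 11-kb span. Among other nuclear tags they held 41.5%. In all 3 spans and elsewhere, most female counts thus lay in tags that were counted in males too. The 11-kb span had the largest such share, with male counts at a low level.

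Among female-higher tags counted in both sexes the median ratio was 4.23 over 49 tags in the 39.6-kb span, 4.17 over 48 tags in the 8.2-kb span and 18.5 over 17 tags in the 11-kb span, beside 3.85 over the 2751 such tags elsewhere on the nuclear scaffolds. At least 8-fold higher in females were 3 of the 49, 4 of the 48 and 11 of the 17, beside 152 of those 2751 tags. Over all listed tags counted in both sexes, male-higher ones included, the share was 2.73%. The 2 spans of NW_021837600.1 had median ratios per tag close to each other and to the rest of the list. In the 11-kb span they were larger. Because the spans were chosen for this difference, none of these values is a test of it.

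**Figure D4:**
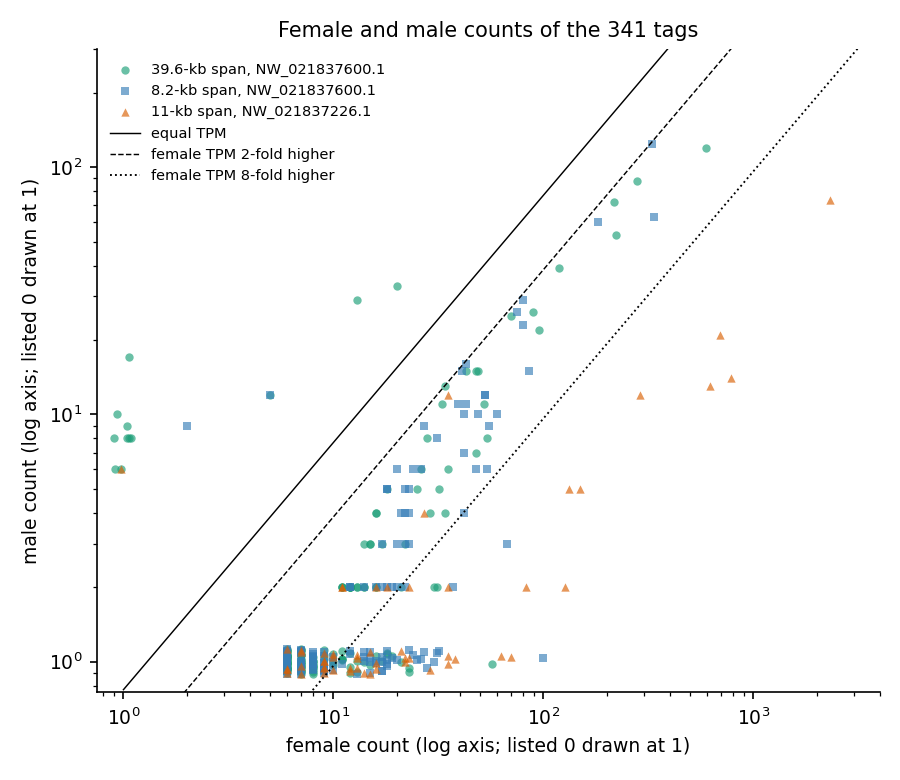
Female count against male count of each of the 341 tags on log axes, with a listed 0 drawn at 1 and spread slightly so that points do not hide each other, and lines for equal TPM and for a female TPM 2-fold and 8-fold higher. The abundant tags of the 2 spans on NW_021837600.1 lie along or somewhat beyond the 2-fold line, those of the 11-kb span stand beyond the 8-fold line, and no tag lies between the equal line and the 2-fold line because such tags were not in the table.

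The tags higher in males were few and low. There were 12 in the 39.6-kb span, 2 in the 8.2-kb span and 1 in the 11-kb span, beside 31.7% of all listed tags, and their male counts ran from 6 to 33. Of the 15, 10 were listed in males alone, beside 3868 of the 7226 male-higher tags of the whole table. Over tags of both directions, those listed in males alone made up 2.93% of the spans and 17.0% of the table. The most counted of the 15, the 29-nt tag at 41710360 to 41710388, had 20 female and 33 male counts, a male over female ratio of 2.14 (1.19 to 3.94). Its direction turned with RLE factors, which gave a female over male ratio of 1.05. The 26-nt tag at 41714992 to 41715017 had 13 and 29 counts, a male over female ratio of 2.90 (1.46 to 6.08). The 27-nt tag at 41693933 to 41693959 had 17 male counts and a listed 0 in females, and no tag overlapped it. Tags at 41724545 to 41724571 and at 41743531 to 41743555 both had 5 female and 12 male counts. The tag at 41740607 to 41740635 had 2 and 9, a male over female ratio of 5.85 (1.21 to 55.6).

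The remaining 9 male-higher tags were all listed at 0 in females. Tags of 29 and 28 nt that shared their last base at 41709803 had 10 and 8 male counts, and the tag at 41710328 to 41710354 had 9. Those starting at 41685871, 41720058 and 41724332 had 8 male counts each, and those starting at 41693529, 41719790 and, in the 11-kb span, 37108 had 6 each. Of the 15 tags, 11 overlapped a female-higher tag, so the directions were interleaved within stacks. At 41693529 to 41693558 a 30-nt tag had 6 male counts and a listed 0 in females, while the 29-nt tag that began 1 base later and ended on the same base had 8 female counts and a listed 0 in males. Both counts are too low to tell such a difference from counting error and from the filter that chose the list. The 12 male-higher tags of the 39.6-kb span held 154 of its 796 male counts, or 19.3%, against 3.49% and 3.30% in the other spans. Its 140 female-higher tags alone had a ratio of 4.20 (3.86 to 4.57), beside 4.67 (4.28 to 5.11) for the 132 of the 8.2-kb span. Both lay below the summed ratio of the 15218 other female-higher nuclear tags, 6.67 (6.58 to 6.76). The 11-kb span, with all its tags, lay above it at 25.4 (21.9 to 29.6). Among female-higher tags counted in both sexes, the medians of 4.23 and 4.17 were instead slightly above the 3.85 elsewhere.

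Tags of the spans overlapped each other more often than listed tags elsewhere on the nuclear scaffolds, and in different ways. At least 1 base was shared with another tag of the span by 107 of 152 tags (70.4%, 62.5 to 77.5) in the 39.6-kb span, 117 of 134 (87.3%, 80.5 to 92.4) in the 8.2-kb span and 44 of 55 (80.0%, 67.0 to 89.6) in the 11-kb span. Among the 21963 other nuclear tags the share was 31.9%. As the spans had been found as clusters of tags, this was partly set by their choice. Merging overlaps left 77, 42 and 14 loci, and the largest held 12, 26 and 31 tags. A start was shared with another tag by 11.8%, 31.3% and 54.5% of the tags, beside 9.40% of other nuclear tags. An end was shared by 29.6%, 44.0% and 67.3%, beside 10.2% elsewhere.

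In all 3 spans more tags had a common end than a common start. The numbers were 45 and 18 in the 39.6-kb span, 59 and 42 in the 8.2-kb span and 37 and 30 in the 11-kb span. There were 31 pairs of tags with the same end and 9 with the same start in the 39.6-kb span, and 43 and 24 in the 8.2-kb span. Counted as pairs the 11-kb span went the other way, with 56 of the same end and 72 of the same start. Many of the latter came from the 10 tags that begin at 47873. Other nuclear tags had 1619 and 1525 pairs. The other 326 listed tags of NW_021837600.1 had 7 pairs with the same end and 16 with the same start. An example with a common end is the 5 tags of 25 to 32 nt ending at 41743603, with 140 female and 20 male counts. Without the strand, an end cannot be assigned to the 5′ or the 3′ side of an RNA. Neighbouring tags of a stack count in several pairs, and no test was made of these numbers.

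Tags that followed each other directly, with the first base of one next to the last base of another, made 14 pairs in the 8.2-kb span, 3 in the 39.6-kb span and none in the 11-kb span. In the 8.2-kb span this was close to the 13 pairs that shared 1 base and above the 7 pairs with 1 base between them. Elsewhere on the nuclear scaffolds direct neighbours made 349 pairs, against 176 that shared 1 base and 187 with 1 base between. Overlaps of 10 bases, the distance left by the ping-pong cycle between the 5′ ends of partners, numbered none, 2 and 15 in the 3 spans. The 15 pairs of the 11-kb span stood beside 8 pairs at 9 bases, 14 at 11 and 17 at 12, so 10 bases did not stand above 11 and 12. Of the 15, 13 lay in the stack at 47867 to 47913 and 2 in that at 47804 to 47849. Other nuclear tags had 242 pairs at 10 bases, beside 172 at 9, 211 at 11 and 195 at 12. As strand was not used, the members of a pair may lie on the same strand, and the ping-pong cycle was not tested.

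Weighted by counts, length differed between the 11-kb span and the other 2. Of its female counts 42.8% (41.5 to 44.0) were of 26 nt, against 10.4% (9.38 to 11.4) in the 39.6-kb span, 9.29% (8.35 to 10.3) in the 8.2-kb span and 13.9% among other nuclear tags. Of its 2566 female counts at 26 nt, 2314 came from the single tag at 47873 to 47898. By number of tags the share at 26 nt was 14.5% (6.50 to 26.7), beside 14.8% among other nuclear tags. Male counts had the same lean, with 46.7% (39.3 to 54.2) of the 182 in the 11-kb span at 26 nt, and 74 of those 85 counts came from the 26-nt tag at 47873. Tags of 29 or 30 nt held 33.4% (31.8 to 35.0) of the female counts in the 39.6-kb span and 35.8% (34.3 to 37.5) in the 8.2-kb span, beside 16.9% among other nuclear tags. By number of tags their share was 30.3% (23.1 to 38.2) and 29.1% (21.6 to 37.6), beside 16.5%. Tags of 24 or 25 nt made up 7.24% (3.67 to 12.6) and 5.97% (2.61 to 11.4) of the tags in these spans, beside 18.1% among other nuclear tags, and 21.8% (11.8 to 35.0) in the 11-kb span. The mean length over tags was 27.68 nt in the 39.6-kb span, 27.98 nt in the 8.2-kb span and 27.40 nt in the 11-kb span, beside 27.42 nt for the other listed tags of NW_021837600.1 and 27.11 nt for all other nuclear tags. Overlapping tags are not independent, so these intervals are likely too narrow.

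Between the sexes, the mean length weighted by counts was 27.8 nt in females and 27.7 nt in males in the 39.6-kb span, and 28.05 and 28.005 nt in the 8.2-kb span. Behind these means the counts were distributed differently. In the 39.6-kb span tags of 26 nt held 10.4% (9.38 to 11.4) of the female and 15.6% (13.1 to 18.3) of the male counts, and 72 of the 124 male counts came from the tag at 41715100. In the 8.2-kb span tags of 27 or 28 nt held 43.0% (41.4 to 44.7) of the female and 32.9% (29.1 to 36.8) of the male counts, and tags of 29 or 30 nt 35.8% and 45.3% (41.3 to 49.4). Tags of 24 or 25 nt held 6.57% (5.77 to 7.44) and 12.6% (10.1 to 15.5). Of the 273 male counts at 29 or 30 nt in this span, 124 came from the tag at 41743376, and of the 76 at 24 or 25 nt, 29 came from the tag at 41743143. Single tags thus made up much of the difference. In sum the female over male ratio of the 8.2-kb span was 3.78 (3.09 to 4.67) for tags of 24 to 26 nt, 5.90 (5.09 to 6.88) for 27 or 28 nt and 3.86 (3.40 to 4.39) for 29 to 33 nt. In the 39.6-kb span these were 2.68 (2.24 to 3.23), 3.46 (3.10 to 3.87) and 3.82 (3.33 to 4.40), and in the 11-kb span 23.4 (19.4 to 28.3), 37.2 (24.4 to 59.6) and 24.9 (18.3 to 34.7).

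**Figure D5:**
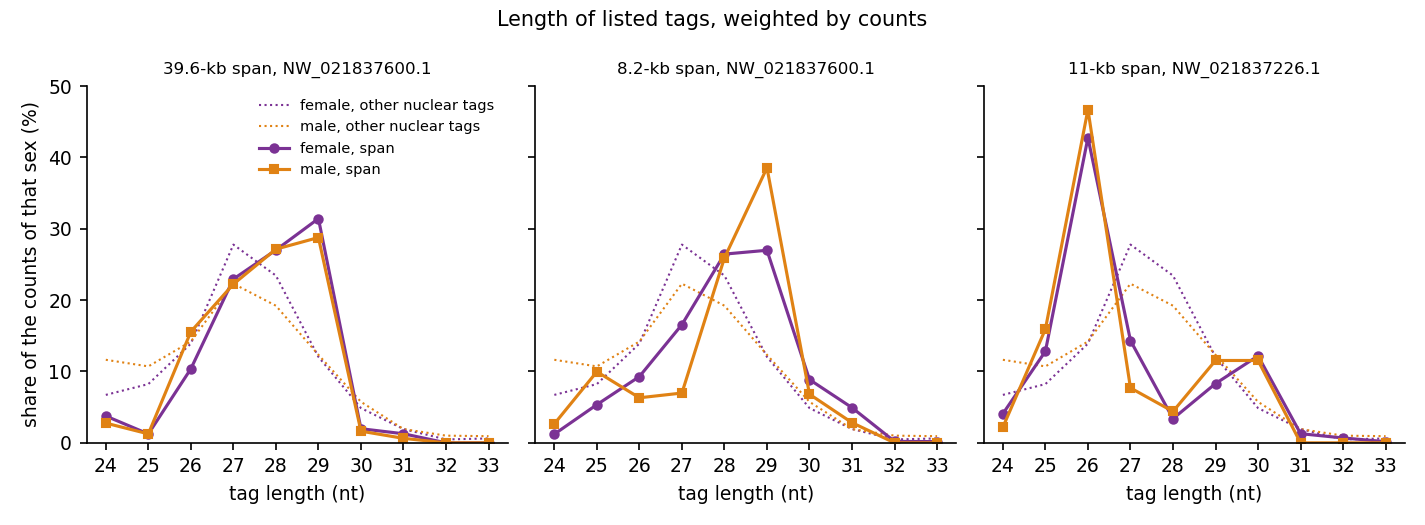
Share of the counts of each sex by tag length in nt, for females and males in each span (solid lines) and among the other nuclear tags of the table (dotted lines). The 11-kb span peaks at 26 nt with 42.8% of female and 46.7% of male counts. The other 2 spans peak at 29 nt in both sexes, and other nuclear tags peak at 27 nt. In the 39.6-kb span 1 tag gave 598 of the 1112 female and 120 of the 229 male counts at 29 nt. In the 8.2-kb span 1 tag gave 329 of 953 and 124 of 232. By number of tags both spans had most at 27 nt, with 40 and 30 tags, as did other nuclear tags.

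The edges of the spans came from the spacing of listed tags. On NW_021837226.1 all 55 listed tags fell into the span, the first at 36935 to 36960 with 27 female and 4 male counts, and the last at 47890 to 47913 with 21 female counts and a listed 0 in males. On NW_021837600.1 the tag before the 39.6-kb span ended 838785 bases away and the tag after the 8.2-kb span began 138169 bases away, with 8 and 6 female counts and a listed 0 in males. The 2 spans were themselves 10115 bases apart, just over the 10 kb at which neighbouring tags were still joined, and with gaps of up to 20 kb allowed they formed 1 span of 286 tags. The tags on either side of that gap, ending at 41725499 and starting at 41735615, each had 6 female counts and a listed 0 in males. The outermost tag on the other side, at 41685871, was one of the male-higher tags, with 8 counts. The other 326 listed tags of the scaffold were also mostly female-higher, 262 of them or 80.4% (75.6 to 84.5), with 4656 female and 1692 male counts and a ratio of 2.12 (2.0 to 2.24). Of these 28.8% overlapped another, and 12.6% were of 24 or 25 nt.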

How the data were processed

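Small RNA was measured in whole bodies with 3 libraries per sex. Total RNA was isolated with TRIzol and small RNA taken from a denaturing gel, per the labels' protocols. Per the submitters' processing notes, reads were handled with Trimmomatic 0.30. Not given in the sources used here are the genome build, the aligner, the counter, the filter on tags and how 3 libraries became 1 column. Counts, as deposited, were whole numbers for each tag and sex. The TPM values that the authors deposited equalled the count over a common total, with 0 written as 0.01, and the deposited log2 values were male over female TPM. The totals were recovered from TPM and count.

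With 1 column per sex no test was possible and no p-value is given. Ratios have exact conditional (Clopper-Pearson) 95% intervals, shares exact Clopper-Pearson ones and counts exact Poisson ones. Since the reads carry no stated molecular identifiers they need not be independent molecules, and the intervals cover counting error only, not differences among mosquitoes or libraries. Where a sex was listed at 0 no fold was computed. Tags sharing at least 1 base were merged to stacks. Scaling factors came from edgeR 4.0.16 in R 4.3.3, and the rest from Python 3.11.15 with scipy 1.17.1. The scaling factors were computed from the listed tags alone, all at least 2-fold apart, so directions that turn with them need caution. The interval and merging steps were tested on simulated data.

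The spans, and the rule for tags to name, were chosen with earlier results of these data known. In each span it took the 5 tags with most counts, the 3 with most female counts among those listed in females alone, the 2 with the largest ratio among those with at least 10 counts, every male-higher tag, the first and last tag, the nearest beyond each edge and the 2 stacks with most tags. Tags named beyond it lie in a stack it named, share its start or end, or are said to be chosen after their values were seen.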

Additional observations from a re-analysis of the deposited data

How the results depend on the processing

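Of 81 values recomputed, 43 stayed inside the counting interval of the reported value and 38 left it. A change of direction was defined only for the female over male ratios of the spans, and none of these changed direction. The cause of a shift was not tested. The female over male ratios of the 39.6-kb, 8.2-kb and 11-kb spans were 4.57, 6.03 and 33.9 with TMM and 7.72, 10.2 and 57.3 with RLE factors, a shift of all tags by 0.42 and 1.17 on the log2 scale. With a listed 0 taken as 1 they were 3.08, 3.96 and 21.1. For the 39.6-kb and 8.2-kb spans they were 2.87 and 3.44 over tags with a TPM of at least 10, and 2.99 and 3.69 over tags of at least 20 counts. The 8.2-kb span stood at 5.16 without its most counted tag, 5.82 without its 3 most counted and 5.93 without its most counted stack, and the 11-kb span at 16.3 without its most counted stack, the last alternative being chosen after seeing the data.

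The share of female-higher tags was 100% in the 8.2-kb span over merged loci and over tags with a TPM of at least 10, and 100% in the 11-kb span over the latter. Over tags of at least 20 counts, 10.8%, 20.4% and 41.7% were listed in females alone. The share of overlapping tags was 11.8%, 31.3% and 54.5% if only the same start counted, and 26.9%, 45.2% and 94.4% over tags with a TPM of at least 10. Tags of 27 or 28 nt held 32.9% of male counts in the 8.2-kb span, and 17.7% of female and 12.1% of male counts in the 11-kb span. Merged loci per kb were 1.94, 5.14 and 1.28. Tags per kb were 4.65 in the 39.6-kb span with gaps of at most 5 kb, and 4.94 in both spans of NW_021837600.1, then joined, with gaps of at most 20 kb. RLE factors turned 1 tag of the spans and 246 tags of the whole table, and the other scalings none.

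No paired analysis was possible because the table holds 1 column per sex, and for the same reason no replicate was left out. The planned thinning of female counts was not run. Depth limits the 11-kb span most, since its ratios rest on 182 male counts.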
